A study of Mus musculus with 4 samples.

Results

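The genes described here are 10 genes of the neuromuscular junction: the 5 subunits of the muscle acetylcholine receptor (Chrna1, Chrnb1, Chrnd, Chrne and Chrng), Musk, Rapsn, Ache, Ncam1 and Prkar1a. They were chosen by name, with earlier results of these data known. The array holds 12393 genes with a probe set of their own. A gene was represented by the probe set with the highest mean log2 signal among those annotated to it alone, dim ones included. The 10 genes have 18 probe sets, out of 22626 that are not controls, and 7 of them have 1 probe set. The comparison was between gastrocnemius muscle of 2 MCK-PPARb transgenic mice, which overexpress PPARbeta (gene Ppard) in muscle, and of 2 non-transgenic littermates, all aged 6 weeks. MCK stands for muscle creatine kinase, whose promoter is active in differentiated muscle fibres. The sources used here give neither the number of transgenic lines nor the sex or strain. RNA of each mouse was hybridised to 1 Affymetrix expression array. Replicates are biological ones according to the sample titles, although the design text can also be read as repeats of the same mice. In that case a p-value covers the spread of these arrays alone, which may be technical.

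At the neuromuscular junction, acetylcholine released by a motor nerve opens a receptor made of alpha, beta and delta subunits with either a gamma subunit, in fetal muscle, or an epsilon subunit, in mature muscle. The nerve signal agrin acts through Lrp4 on the receptor tyrosine kinase MuSK, and rapsyn then gathers the receptors beneath the nerve ending. In innervated mature fibres the nuclei beneath the nerve ending make most of the receptor transcripts. Electrical activity keeps the genes low elsewhere, and after loss of the nerve the alpha, beta, delta and gamma subunit genes, Musk, Ncam1 and the transcription factor Myog are known to increase along the fibre.

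Ppard read 126049 and 98797 signal units in MCK-PPARb muscle, against 2169 and 2825 in non-transgenic muscle, which matches the labels. The median signal lay between 431 and 513 on the 4 arrays, and log2 signals correlated at r = 0.924 to 0.955 between arrays over the brighter probe sets, which are not independent replicates. The strongest signals were higher on non-transgenic replicate 1 than on the other arrays. The 11 markers of skeletal muscle fibres were all on the array and kept, as the labelled tissue requires, with summed signals of 1361929 and 1217579 in MCK-PPARb muscle and of 2049657 and 1193155 in non-transgenic muscle. No gene of the group had a probe set that passed the test between the genotypes. Probe sets were kept for this test when their mean log2 signal exceeded the median of all, which lies at 444 units, and a gene was called changed at an adjusted p under 0.05 in limma. Of the 10 genes, 7 were kept and Chrnd, Chrng and Ncam1 lay below the filter. Of the 7 kept genes 0 were called, while 0.731% of the 6841 kept genes were, and 1 had an unadjusted p under 0.05, against 10.9% of kept genes. The 3 dim genes were tested in a fit over all 22626 probe sets, in which 0.428% of genes were called: 0 of them passed, and 1 had an unadjusted p under 0.05, against 8.08% of all genes.

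**Figure D1:**
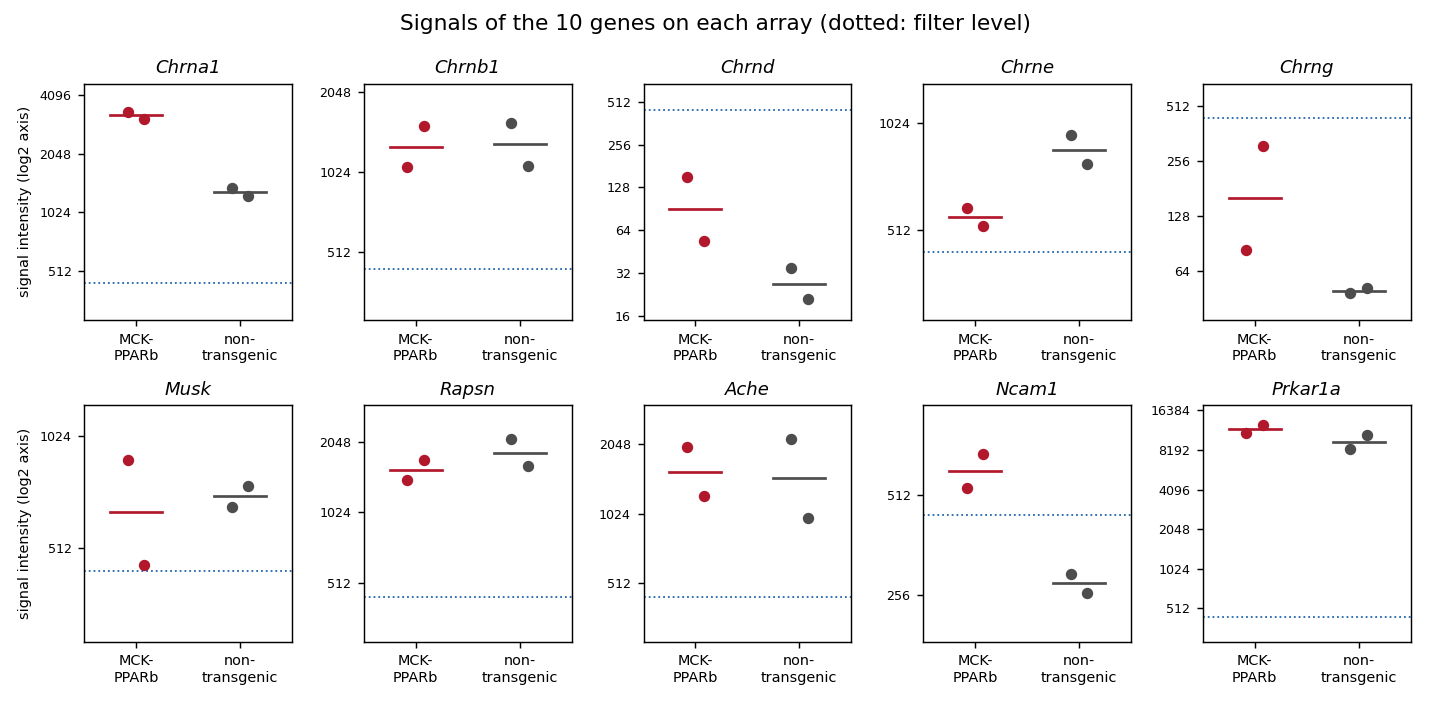
Signal intensity of each of the 10 genes on each array, on a log2 axis with its own range in every panel. Points are single arrays, 2 of MCK-PPARb muscle in red and 2 of non-transgenic muscle in grey, short lines are means of the log2 signals and the dotted line is the filter level of 444 units. The groups stand apart most clearly, relative to the spread of their points, for Chrna1, at 3362 and 3100 in MCK-PPARb muscle and 1369 and 1240 in non-transgenic muscle.

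Chrna1, the alpha subunit, which binds acetylcholine and is present in both the fetal and the mature receptor, had the smallest p among the 10 genes. Its signal was 3362 and 3100 in MCK-PPARb muscle, against 1369 and 1240 in non-transgenic muscle. Both transgenic arrays lay more than a factor of 2 above both others, and the replicates of a group differed little. The mean was 2.48-fold higher. The log2 difference was 1.31 ± 0.22 (SE from limma, n = 2 per group), with a 95% interval of 0.80 to 1.82 on the log2 scale. It did not pass over all probe sets (adjusted p = 0.0606 with limma), and its p ranked 57 among the 6841 kept genes. An exact permutation test with 2 arrays against 2 cannot go below p = 0.333, so the test rests on the spread that limma pools over probe sets. The call depended on the setting: the adjusted p ran from 0.0046 to 0.285 over the alternatives, and the gene passed without non-transgenic replicate 1 (adjusted p = 0.0433). Its difference ran from 1.20 to 1.38. In bulk muscle, a change in the number of cells of a type and a change of RNA per cell cannot be told apart, here as for the other genes.

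Chrne, the epsilon subunit of the mature receptor, read 590.3 and 525 units in MCK-PPARb muscle, against 946 and 787 in non-transgenic muscle. Both transgenic arrays lay below both others. The log2 difference was -0.63 ± 0.31 (SE, n = 2 per group), with an adjusted p of 0.541 in limma, with a 95% interval of -1.36 to 0.09. It was negative in each of the alternatives run, from -0.77 to -0.50, and passed in none. Chrnb1, the beta subunit, read 1070.2 and 1521 in MCK-PPARb muscle, against 1572 and 1085 in non-transgenic muscle. The groups overlapped fully, with a log2 difference of -0.03 ± 0.31 and a 95% interval of -0.75 to 0.69.

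Chrng, the gamma subunit of the fetal receptor, was dim on every array. Its brightest probe set read 82.9 and 312 in MCK-PPARb muscle, against 47.9 and 51.6 in non-transgenic muscle, all below the filter level. The groups did not overlap, but the transgenic arrays differed from each other by more than the lower of them differed from the non-transgenic ones. The log2 difference was 1.69 ± 1.06 (adjusted p = 0.793 with limma over all probe sets), with a 95% interval of -0.72 to 4.11. The other 2 probe sets of Chrng had the opposite sign. One read 41.7 and 56.4 in MCK-PPARb muscle, against 303 and 24.5 in non-transgenic muscle (log2 -0.83). The last read 131 and 4.4 in MCK-PPARb muscle, against 67.1 and 117 in non-transgenic muscle (log2 -1.89). The mean log2 signal that chose between the first 2 probe sets was 6.48 against 6.01. No direction for Chrng can be read from these probe sets.

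Chrnd, the delta subunit, is the neighbour of Chrng on mouse chromosome 1: in assembly GRCm38.p6, Chrnd spans 87190597 to 87200070 and Chrng spans 87205811 to 87211835. Its probe set read 151 and 54.2 in MCK-PPARb muscle, against 35.0 and 21.1 in non-transgenic muscle. Both transgenic arrays were higher, at levels far below the filter. The log2 difference was 1.73 ± 1.17 (adjusted p = 0.810 with limma over all probe sets), with a 95% interval of -0.92 to 4.39. With a floor at the filter level, neither Chrnd nor Chrng had a difference left to measure.

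**Figure D2:**
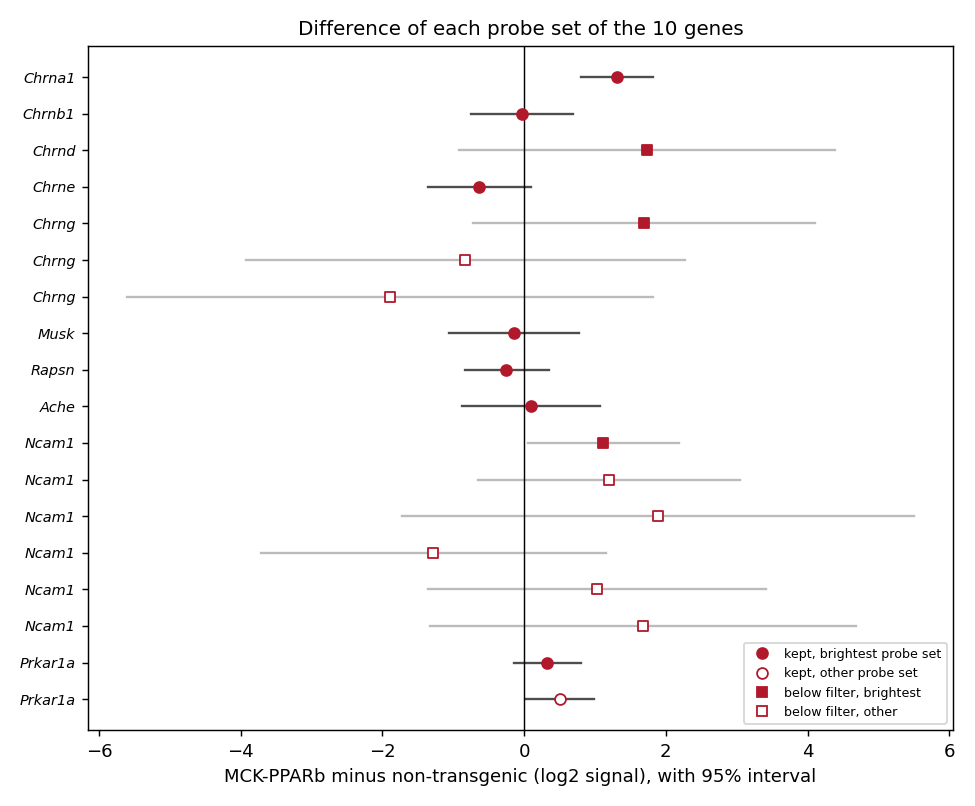
Difference in log2 signal, MCK-PPARb minus non-transgenic, for each of the 18 probe sets of the 10 genes, with its 95% interval from limma. Circles were kept and tested over the kept probe sets, squares lay below the filter and were tested over all probe sets, and filled symbols mark the brightest probe set of a gene. The interval of Chrna1 runs from 0.80 to 1.82, and those of the dim probe sets of Chrng and Ncam1 are wider, the narrowest of them running from 0.05 to 2.19.

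The fetal and the mature subunit were set against each other within each array, as the log2 signal of Chrng minus that of Chrne. This value was -2.83 and -0.75 in MCK-PPARb muscle, against -4.30 and -3.93 in non-transgenic muscle. The groups did not overlap, and the means were -1.79 ± 1.47 and -4.12 ± 0.26 (SD, n = 2 each). The difference of 2.33 had an exact two-sided permutation p of 0.333, the smallest that 2 arrays against 2 allow. Leaving out MCK-PPARb replicate 2 gave 1.29, and leaving out MCK-PPARb replicate 1 gave 3.37. With the mean of the 3 Chrng probe sets in place of the brightest it was 0.29 (exact permutation p = 0.667), and with each of the other 2 Chrng probe sets alone it was -0.20 and -1.26. The direction of the contrast thus depended on the Chrng probe set. The same contrast of Chrna1 with Chrne, chosen after its values were seen, was 2.51 and 2.56 in MCK-PPARb muscle, against 0.53 and 0.66 in non-transgenic muscle. The unequal change of these 2 brighter subunits was 1.94 on the log2 scale, and it is given without a test.

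**Figure D3:**
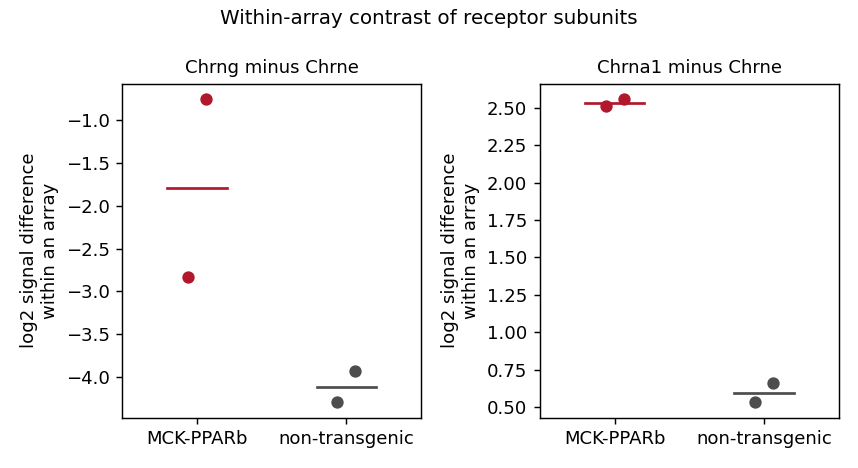
Log2 signal of Chrng minus that of Chrne, on the left, and of Chrna1 minus that of Chrne, on the right, within each array. Points are single arrays, lines are means over the 2 arrays of a group, and the vertical axes have different ranges and do not start at 0. The MCK-PPARb points of Chrng minus Chrne lie at -2.83 and -0.75, against -4.30 and -3.93 in non-transgenic muscle, while those of Chrna1 minus Chrne lie at 2.51 and 2.56, against 0.53 and 0.66.

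The sequences before the start of Chrna1, Chrng and Chrne are shown because E-boxes and the N-box are known elements in the control of subunit genes. Myogenic factors such as myogenin bind E-boxes, and the ETS-family factor GABP binds the N-box, through which transcription is known to be concentrated beneath the nerve ending. The motifs searched on both strands were the E-box CANNTG, which is its own reverse complement, and the N-box CCGGAA. The windows are the 250 bases before a transcript start in RefSeq, build GRCm38.p6, read in the direction of transcription, with matches in capitals. Promoters of 7 of the 10 genes were in the table used, and those of Chrnd, Rapsn and Ncam1 are named only.
Chrna1, chr2:73580339-73580588, minus strand: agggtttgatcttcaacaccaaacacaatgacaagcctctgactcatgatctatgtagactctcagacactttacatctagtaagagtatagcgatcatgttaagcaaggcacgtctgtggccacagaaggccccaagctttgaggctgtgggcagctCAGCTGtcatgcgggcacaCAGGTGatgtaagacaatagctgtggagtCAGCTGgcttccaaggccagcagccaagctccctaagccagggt
Chrng, chr1:87205561-87205810, plus strand: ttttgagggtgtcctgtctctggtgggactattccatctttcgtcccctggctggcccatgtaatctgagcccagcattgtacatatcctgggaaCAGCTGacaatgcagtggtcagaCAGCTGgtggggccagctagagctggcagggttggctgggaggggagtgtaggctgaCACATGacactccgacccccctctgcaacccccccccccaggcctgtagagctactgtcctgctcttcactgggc
Chrne, chr11:70619195-70619444, minus strand: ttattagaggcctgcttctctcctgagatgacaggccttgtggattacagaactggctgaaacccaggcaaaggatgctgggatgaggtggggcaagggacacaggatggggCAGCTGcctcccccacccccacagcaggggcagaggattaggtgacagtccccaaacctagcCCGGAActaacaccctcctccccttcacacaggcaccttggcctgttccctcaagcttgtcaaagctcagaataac

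The Chrna1 window held 3 E-boxes, beginning 92, 73 and 44 bases before the start, and the Chrng window 3, beginning 155, 132 and 75 bases before it. In both, 2 of the 3 read CAGCTG. Of 32851 promoter windows of the same length in the table, 12.2% held at least 3 E-boxes and 1.26% at least 2 copies of CAGCTG. The Chrne window held 1 E-box, 138 bases before the start, and 1 N-box, 76 bases before it. At least 1 E-box was found in 66.2% of all windows and an N-box in 12%, and no match to either overlapped the other in these 3 windows. Windows of other members held E-boxes too, 3 in that of Chrnb1, 3 in that of Musk and 1 in that of Ache. Of these, CAGCTG was found only in the Musk window, in 1 copy. The 6 Prkar1a windows held 0 to 3 E-boxes each, and an N-box was found there too. A match is a description of the letters and not of a site in use.

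Musk, the receptor tyrosine kinase that organises the postsynaptic membrane, read 883 and 460.5 in MCK-PPARb muscle, against 658 and 752 in non-transgenic muscle. The transgenic arrays enclosed the non-transgenic ones, with a log2 difference of -0.14 ± 0.39 and a 95% interval of -1.06 to 0.77. Rapsn, which encodes rapsyn, the protein that anchors and clusters the receptor, read 1414 and 1713 in MCK-PPARb muscle, against 2108 and 1623 in non-transgenic muscle. The groups overlapped, and the log2 difference was -0.25 ± 0.25 (95% interval -0.84 to 0.35). Ache, the acetylcholinesterase gene that ends the signal in the synaptic cleft, read 1985 and 1218 in MCK-PPARb muscle, against 2155 and 983 in non-transgenic muscle. Within each genotype, the Ache arrays differed by more than the genotypes did, and the log2 difference was 0.10 ± 0.42 (95% interval -0.88 to 1.07). The adjusted p with limma was 0.938 for Musk, 0.797 for Rapsn and 0.960 for Ache. Red blood cells also carry acetylcholinesterase. The erythroid enzyme gene Alas2, the kept member of that marker list, had a log2 difference of 0.17 ± 0.31. The 4 erythroid markers on the array summed to 1089 and 1347 in MCK-PPARb muscle, against 1333 and 1024 in non-transgenic muscle, mostly from Alas2. Of the 4, 2 had a higher and 2 a lower mean, with a median log2 difference of -0.22. Their mean log2 signal was 6.77 and 7.04 in MCK-PPARb muscle, against 6.84 and 7.25 in non-transgenic muscle. The part of red blood cells in the Ache signal was not tested.

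Ncam1, a cell adhesion molecule of developing and denervated fibres, of satellite cells, of Schwann cells and of nerve, had 6 probe sets, all below the filter. The brightest read 537.5 and 678 in MCK-PPARb muscle, against 296.5 and 259.5 in non-transgenic muscle. The groups stood apart, with the transgenic arrays above the filter level and the others below it. The mean was 2.18-fold higher. The log2 difference was 1.12 ± 0.47 (SE, n = 2 per group), with an adjusted p of 0.632 in limma over all probe sets. Its 95% interval was 0.05 to 2.19 on the log2 scale. With a floor at the filter level, the difference was 0.44. Of the 6 probe sets, 5 had a higher mean in MCK-PPARb muscle and 1 a lower one, with differences between -1.28 and 1.89. In 4 of them the arrays of the genotypes stood apart, of which 3 were higher and 1 lower. By their brightest probe set, 38.2% of all genes stood apart in this way. The 6 probe sets were read on the same arrays and are not independent of each other. The mean log2 signal of the chosen probe set was 8.68 and that of the next was 7.23, which read 289 and 179 in MCK-PPARb muscle, against 103 and 94.5 in non-transgenic muscle.

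Markers of cells that also carry Ncam1 were read beside it. Of 16 Schwann cell and nerve markers, 12 were on the array and 4 were kept, and these 4 had higher means in MCK-PPARb muscle, with a median log2 difference of 0.63. None of the 4 passed, and an unadjusted p under 0.05 was found for 3, against 10.9% of kept genes. Of the 8 below the filter 3 had a higher mean, Scn7a (log2 1.74), Egr2 (0.66) and Ngfr (0.60). The other 5 had a lower mean. They were the Schwann cell markers S100b (-0.94) and Mag (-0.13), the growth cone gene Gap43 (-1.52), Nefl (-1.56) and Nefm (-1.22). In all, 7 of the 12 were higher and 5 lower. Mbp, a myelin protein gene, read 13324 and 14763 in MCK-PPARb muscle, against 7616 and 6856 in non-transgenic muscle (log2 0.96 ± 0.18, adjusted p = 0.0928 with limma). The 12 markers summed to 33056 and 36731 in MCK-PPARb muscle, against 20046 and 21846 in non-transgenic muscle, most of it from Mbp and the myelin gene Pmp22. Their mean log2 signal, which weights the 12 alike, was 8.37 and 7.88 in MCK-PPARb muscle, against 8.11 and 8.12 in non-transgenic muscle. The part of these cells in the Ncam1 signal was not tested. The neurofilament genes Nefl and Nefm, made by neurons, read 6.9 to 12.1 in MCK-PPARb muscle, against 12.2 to 58.9 in non-transgenic muscle. These signals lie far below the filter level of 444 units. Neither gene passed in limma over all probe sets (adjusted p = 0.863 for Nefl and 0.891 for Nefm). Of 12 satellite cell and myoblast markers on the array, 8 were kept, 6 with a higher and 2 with a lower mean, and 0 passed, with a median log2 difference of 0.22. Pax7, the satellite cell transcription factor, read 585 and 333 in MCK-PPARb muscle, against 544 and 315 in non-transgenic muscle, with overlapping groups.

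Prkar1a encodes a regulatory subunit of protein kinase A that is enriched at the junction, where the kinase is known to affect the stability of the receptor. Its brightest probe set read 10948 and 12793 in MCK-PPARb muscle, against 8356 and 10719 in non-transgenic muscle. Both transgenic arrays were above both others, by a small margin, and the log2 difference was 0.32 ± 0.20 (adjusted p = 0.643 with limma; 95% interval -0.15 to 0.80). The other probe set, of mean log2 signal 12.81 against 13.37, read 9716 and 7548 in MCK-PPARb muscle, against 6353 and 5690 in non-transgenic muscle. Its log2 difference was 0.51 ± 0.20, with an unadjusted p of 0.0391 and an adjusted p of 0.435 in limma. Of 14 kept genes of protein kinase A subunits, anchors, inhibitors and phosphodiesterases, 0 passed in limma, 1 had an unadjusted p under 0.05, against 10.9% of kept genes, and the median log2 difference was 0.07. That gene was Pkia, an inhibitor of the kinase's catalytic subunit, at 11129 and 15688 in MCK-PPARb muscle, against 17348 and 24988 in non-transgenic muscle (log2 -0.66 ± 0.25, adjusted p = 0.412). Next came the phosphodiesterase genes Pde4a (-0.70 ± 0.35) and Pde7a (-0.66 ± 0.41) and the anchor gene Akap1 (0.38 ± 0.22), none of which passed. Single arrays moved the first 2 far: Pde4a was -0.22 without non-transgenic replicate 1 and -1.19 without non-transgenic replicate 2, and Pde7a was -0.03 without MCK-PPARb replicate 1 and -1.30 without MCK-PPARb replicate 2.

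Over the group, the arrays of the genotypes did not overlap for 6 of the 10 genes, 5 higher and 1 lower in MCK-PPARb muscle, while 38.2% of all genes did not overlap and 20.9% did so with the higher values in MCK-PPARb muscle. Among the 7 kept genes the count was 3, against 42.9% of kept genes, a share near the background. Chrnd, Chrng and Ncam1, counted among the 5 higher, lay below the filter, and the other probe sets of Chrng had the opposite sign. As the members were chosen with earlier results of these data known, these counts are no independent evidence of a change. The median log2 difference of the 7 kept genes was -0.03, and that of all kept genes was 0.011. Among the 3 kept receptor subunits the differences ran from -0.63 for Chrne to 1.31 for Chrna1, none past the test.

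Other genes that act on or around the receptor were read from lists. Of 25 genes of the agrin, Lrp4 and MuSK pathway, 18 were on the array and 14 were kept: 0 passed in limma, 2 had an unadjusted p under 0.05, near the 10.9% of all kept genes, and the median log2 difference was 0.21. Cttn, which encodes cortactin, an actin-binding protein of receptor clusters, read 1919 and 1831 in MCK-PPARb muscle, against 860 and 951 in non-transgenic muscle (log2 1.05 ± 0.24, adjusted p = 0.152), but with the mean of its probe sets the difference was 0.41 (adjusted p = 0.518). Macf1, a linker of microtubules and actin, differed by 0.57 ± 0.21 (adjusted p = 0.397), the neuregulin receptor gene Erbb3 by 0.52 ± 0.27 and the beta-catenin gene Ctnnb1 by -0.28 ± 0.17. Agrn, the agrin gene, read 518 and 389.9 in MCK-PPARb muscle, against 542 and 610.3 in non-transgenic muscle, a difference of -0.36 ± 0.36 that did not pass. Lrp4, the agrin receptor gene, lay below the filter at 313 and 650.0 in MCK-PPARb muscle, against 262 and 209 in non-transgenic muscle. The groups overlapped for neither gene, and their means differed in opposite directions.

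Of 18 kept genes of the synaptic basal lamina and the postsynaptic scaffold, 0 passed in limma and 0 reached an unadjusted p under 0.05, against 10.9% of kept genes, with a median log2 difference of -0.03. Those of smallest p were Dtna, which encodes alpha-dystrobrevin (0.47 ± 0.20), Nes, which encodes nestin, an intermediate filament protein of the junction (0.55 ± 0.25), the potassium channel gene Kcnj11 (-0.97 ± 0.58) and the laminin gene Lama5 (-0.42 ± 0.39). After averaging over all their probe sets, Dtna was at 0.06 and Nes at 0.23. Kcnj11 read 1703 and 804 in MCK-PPARb muscle, against 4204 and 1249 in non-transgenic muscle. Its groups overlapped, and its difference was -0.09 without non-transgenic replicate 1 and -1.84 without non-transgenic replicate 2. Of 15 kept genes of transcription control at the junction, 0 passed in limma, 1 had an unadjusted p under 0.05, against 10.9% of kept genes, and the median was 0.29. That gene was Mef2d, a muscle transcription factor, at 14256 and 11261 in MCK-PPARb muscle, against 8867 and 6816 in non-transgenic muscle (log2 0.70 ± 0.22, adjusted p = 0.288), a difference of 0.38 with the mean of its probe sets. Myog, the factor known to drive receptor genes through E-boxes after denervation, read 1169 and 2964 in MCK-PPARb muscle, against 1092 and 882 in non-transgenic muscle. One transgenic array was far above the others and the other only just above them, and the difference of 0.92 ± 0.43 did not pass (adjusted p = 0.514). Tcf12, a partner of myogenic factors, differed by 0.43 ± 0.21 and Mef2a by 0.29 ± 0.19.

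The list of denervation-responsive genes held 27 genes, 8 of them from the group described here, most of them known to increase after loss of the nerve, while Dach2, a repressor of Myog, is known to fall. On the array were 24, and 15 were kept, of which 2 rose, 0 fell and 13 did not pass, against 0.409% of kept genes called higher. Both calls were known when the list was written, so the count is no independent evidence of its direction. Sln, the calcium pump inhibitor sarcolipin, read 76835 and 82798 in MCK-PPARb muscle, against 268 and 737 in non-transgenic muscle (log2 7.49 ± 0.42, adjusted p = 0.000412 with limma). Cdkn1a, the cell cycle inhibitor p21, read 17252 and 19850 in MCK-PPARb muscle, against 2079 and 1256 in non-transgenic muscle (log2 3.52 ± 0.27, adjusted p = 0.00218). Neither is a component of the junction. The median log2 difference of the 15 kept genes was 0.25, against 0.011 for all kept genes, with 9 higher and 6 lower means in MCK-PPARb muscle. An unadjusted p under 0.05 in limma was found for 4 of the 15, Sln, Cdkn1a, Chrna1 and Myh8, against 10.9% of kept genes. The 9 genes below the filter all had higher means, Dach2 among them. Over all 24, 18 were higher and 6 lower, with a median of 0.57, against 0.046 for all genes. As the list was written with earlier results of these data known, these counts are no independent evidence either.

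Myh8, the perinatal myosin heavy chain, read 657 and 834 in MCK-PPARb muscle, against 259.5 and 407 in non-transgenic muscle. Its difference of 1.19 ± 0.39 did not pass (adjusted p = 0.329 with limma). Myh3, the embryonic myosin heavy chain, lay below the filter by its mean, at 1201 and 1561 in MCK-PPARb muscle, against 59.9 and 183 in non-transgenic muscle. In the fit over all probe sets its log2 difference of 3.71 did not pass (adjusted p = 0.0631 with limma). Gadd45a, a growth arrest gene known as an early response to denervation, read 575 and 459 in MCK-PPARb muscle, against 341 and 649.9 in non-transgenic muscle (log2 0.12 ± 0.43). Fbxo32, the ubiquitin ligase atrogin-1, read 6443 and 2293 in MCK-PPARb muscle, against 4465 and 1913 in non-transgenic muscle (log2 0.39 ± 0.54). The groups overlapped for both. Myod1, the myogenic factor, differed by -0.02 ± 0.33. Myh3, Gadd45a, Fbxo32 and Myod1, and above Agrn, Lrp4, Pax7, Nefl, Nefm, S100b, Mag, Gap43, Scn7a, Egr2 and Ngfr, and below Adgre1, Cidec, Lep and Pparg, were named after their values were seen. Markers of other cells were read beside these genes. The 3 kept adipocyte markers had a median log2 difference of 1.02, the 3 kept immune cell markers 0.12, the 7 endothelial markers 0.05 and the 11 muscle fibre markers -0.29, and 0 of these passed in limma. Of the kept immune cell markers, Adgre1 differed by 0.83 ± 0.26 (adjusted p = 0.287 with limma). Over all 8 immune cell markers on the array, 4 were higher and 4 lower, with a median of 0.02. The muscle fibre markers had a mean log2 signal of 16.75 and 16.62 in MCK-PPARb muscle, against 17.15 and 16.58 in non-transgenic muscle. The value of 17.15 was that of replicate 1, and the groups overlapped. The 3 adipocyte markers below the filter had lower means in MCK-PPARb muscle (Cidec -0.47, Lep -0.80 and Pparg -0.72 on the log2 scale), and the median over all 6 was 0.15. The 6 markers summed to 5505 and 5796 in MCK-PPARb muscle, against 3184 and 3143 in non-transgenic muscle, a sum made mostly of Adipoq, Retn and Lipe. Their mean log2 signal was 8.26 and 8.62 in MCK-PPARb muscle, against 8.31 and 8.30 in non-transgenic muscle. The part of these cells in the differences given here was not tested.

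**Figure D4:**
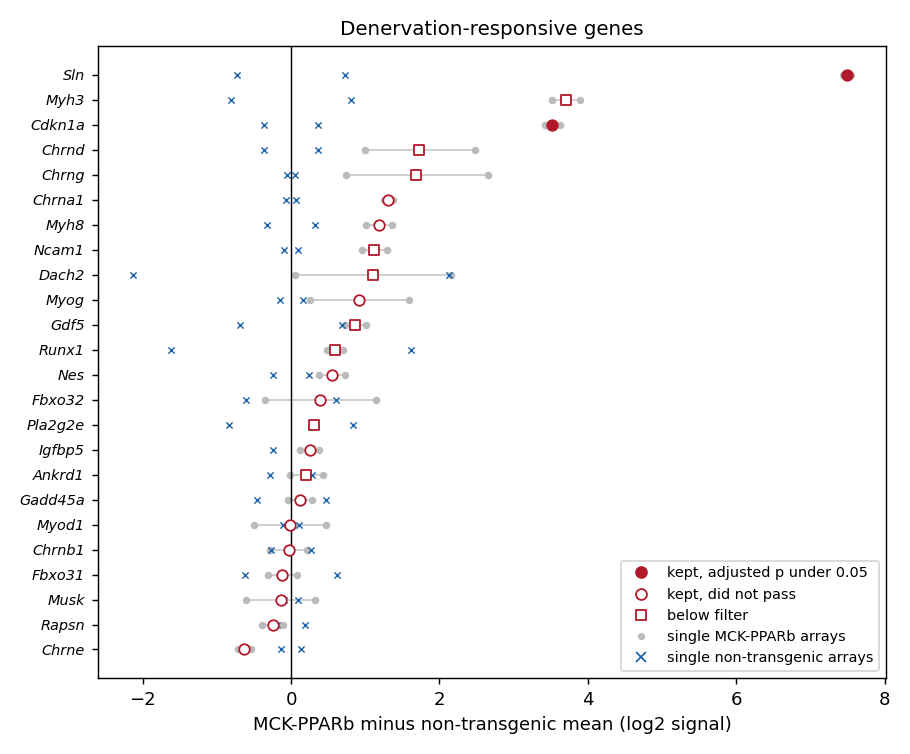
Difference in log2 signal, MCK-PPARb minus the non-transgenic mean, for the 24 denervation-responsive genes on the array. Large symbols are the group differences, small grey points are the 2 MCK-PPARb arrays and blue crosses are the 2 non-transgenic arrays, each relative to the non-transgenic mean. Filled circles, Sln at 7.49 and Cdkn1a at 3.52, passed the test, open circles did not, and squares lay below the filter and were not in that test.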

How the data were processed

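Gastrocnemius RNA of 2 MCK-PPARb and 2 non-transgenic mice was measured on 4 Affymetrix arrays. The deposited table gives 1 linear signal intensity for each probe set on each array. The submitters' processing notes name MAS5 and GCOS without a version. Leaving out 2% of probe sets at each end, every array averaged 1501, which shows a common scaling, and weak signals carry large errors on a log scale. No value was 0 or below.

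Of 22690 probe sets, 64 controls were left out. Symbols came from the platform annotation, 20380 probe sets having 1 symbol, 691 several and 1555 none here, and 20351 were updated through the gene number with the gene table of assembly GRCm38.p6. Signals were log2-transformed without a pseudocount. The 11313 probe sets whose mean exceeded the median of all were tested between genotypes in limma 3.58.1 under R 4.3.3 (lmFit, eBayes with an intensity trend, both directions, Benjamini-Hochberg adjustment over all of them). Members below the filter were tested in the same fit over all 22626. Differences are MCK-PPARb minus non-transgenic, and folds are ratios of means on the log2 scale. The fits were tested on simulated data, whose spread depended on the mean signal alone and which held no replicate effect. This does not show their power for the differences given here. The number of arrays limits the precision.

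The members and lists were chosen with earlier results of these data known. Named genes were the 10 members with all their probe sets, Ppard, the called genes and the 4 of smallest p in each list, and the 3 genes most like Chrng and Chrne over the arrays. Alternatives of scale were median centring, quantile normalization, a floor at the filter level and a pseudocount of 117. Alternatives of choice were no filter or one at the 75th percentile, averaging the probe sets of a gene, dropping the suffixes _s_at and _x_at, and dropping single arrays. Alternatives of the test were no trend, robust eBayes, a replicate block and a threshold of 0.1.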

Additional observations from a re-analysis of the deposited data

How the results depend on the processing

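The number of kept members called was 0 in the reported fit and 1, Chrna1 in each case, with a filter at the 75th percentile, with robust eBayes (adjusted p = 0.0481), after averaging the probe sets of each gene (0.0329) and at an adjusted p under 0.1. It was 0 to 1 when single arrays were left out. It was 0 without the intensity trend, where Chrna1 had an adjusted p of 0.163, and 0 with quantile normalization, median centring, the pseudocount, the floor, no filter and without the _s_at and _x_at probe sets. The members below the filter stayed uncalled in each alternative run. The sample titles do not say whether arrays of the same replicate number belong together. The deviations of same-numbered arrays correlated at r = 0.276, and whether a block by replicate is the apt test cannot be told. With a replicate block, 1 kept member, Chrna1 (adjusted p = 0.0046), was called. It was among the 4 list genes called under the block, with Cttn, Sln and Cdkn1a, against 2 in the reported fit, and 377 probe sets were called, against 68. Probe sets called numbered 21 without the trend, 116 with median centring (48 higher and 68 lower, against 38 and 30) and 150 at an adjusted p under 0.1, and 36 to 159 with an array left out. Median centring moved the median of all kept probe sets by about 0.1, to -0.089 from 0.017. The Chrng minus Chrne contrast was 1.35 with the pseudocount and 0.63 with the floor, where Chrng has no value of its own, and 1.29 to 3.37 with an array left out. The sign turned for Chrnb1 (-0.30 to 0.23 with an array left out, positive without MCK-PPARb replicate 1 or non-transgenic replicate 1), Musk (-0.61 to 0.33, positive without MCK-PPARb replicate 2), Ache (-0.47 to 0.66, negative without MCK-PPARb replicate 1 or non-transgenic replicate 2, and -0.01 with median centring), Lama5 (-0.98 to 0.14, positive without non-transgenic replicate 2) and Chrng (-0.34 with the average of its probe sets), and the cause was not tested. Cttn passed with the replicate block (1.05, adjusted p = 0.0377) and was at 0.41 (adjusted p = 0.518) with the mean of its probe sets. With an array left out, Myog ran from 0.25 to 1.59, Chrng from 0.74 to 2.65, Chrnd from 1 to 2.47, Rapsn from -0.44 to -0.06 and Prkar1a from 0.14 to 0.50. Of 462 values of named genes under the alternatives, 447 kept their direction and side of the threshold. Low signal limits Chrnd, Chrng and Ncam1, whose differences have standard errors of 0.47 to 1.17.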

Other observations

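The array also holds 9 genes of nicotinic receptor subunits known mainly from neurons, Chrna2 to Chrna7 and Chrnb2 to Chrnb4, read here after the values of the muscle subunits were seen. All 9 lay below the filter, 0 passed in limma over all probe sets, and 0 had an unadjusted p under 0.05. Means were higher in MCK-PPARb muscle for 7 and lower for 2, and the groups did not overlap for 4, near the 38.2% of all genes. The log2 differences ran from -2.10 to 2.14. Chrna7, which forms receptors of a single kind of subunit, read 476 and 145 in MCK-PPARb muscle, against 67.1 and 52.7 in non-transgenic muscle (log2 2.14 ± 0.95, adjusted p = 0.662). Chrnb3 read 304 and 279 in MCK-PPARb muscle, against 145 and 117 in non-transgenic muscle (log2 1.16 ± 0.71, adjusted p = 0.783). Chrna2 read 80.8 and 8.9 in MCK-PPARb muscle, against 74.8 and 177 in non-transgenic muscle (log2 -2.10 ± 1.35, adjusted p = 0.802). Chrna6 read 39.8 and 37.5 in MCK-PPARb muscle, against 64.4 and 104 in non-transgenic muscle (log2 -1.08 ± 1.08, adjusted p = 0.892).

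Over the 4 arrays, the genes whose centred log2 signals lay nearest to those of Chrne, out of 12392, were Rcl1, Gsdme and Yipf7, at root mean square distances of 0.025, 0.028 and 0.0336. Those nearest to Chrng were Prtn3, Krt86 and Csmd1, at 0.138, 0.157 and 0.166. With 4 arrays such a likeness is a description of these arrays.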
